A study of Caenorhabditis elegans with 4 samples.

Results

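The 364 binding regions of GFP-tagged ELT-1 on chromosome IV of Caenorhabditis elegans are described here, out of 2548 regions in the combined list of the study. They were chosen by chromosome alone: every entry of that list placed on IV, the chromosome that carries elt-1 itself, is a member. The study used chromatin immunoprecipitation followed by sequencing (ChIP-seq) in hermaphrodite larvae at stage L3, grown at 20 °C, fixed in 2% formaldehyde and precipitated with antibodies against GFP. All 4 samples, 2 ChIP samples and the 2 input samples of DNA set aside before precipitation, came from 1 strain, OP354, which is unc119(ed3) and carries wgIs354, written elt-1::TY1 EGFP FLAG;unc119. The tagged elt-1 is a transgene made by recombineering and brought in by bombardment, its unc119 copy serves as the marker in the unc119(ed3) background, and the genotype names no change at the worm's own elt-1. The strain was not outcrossed. Whole larvae were used, so the regions carry no cell type, and no other stage, genotype or untagged strain was among the samples used here.

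ELT-1 is a zinc finger protein of the GATA family, whose members bind short DNA sites built around the letters GATA. In C. elegans it is known as the factor that commits embryonic cells to an epidermal fate, and it is also used in the larval epidermis, including the seam cells that keep dividing through the larval stages. A ChIP-seq region marks DNA that was recovered with the tagged protein, which includes DNA held through other proteins. Worm autosomes have a gene-dense centre flanked by arms that hold more repeats and recombine more often.

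Each region has a position in the WormBase WS220 genome, a width and a number in its name, where 1 is taken as the best; the score is the same for all combined regions and orders none of them. Genome sequence and gene annotation of this build were not used here, so no gene or sequence is assigned to a region, and whether any region lies at elt-1 was not determined. The replicate lists held 4588 (replicate 1) and 4426 (replicate 2) regions on IV, out of 28238 and 26327. Read depth is unknown for every list. With 2 ChIP samples from which the combined list itself was made, the spread between replicates is shown by giving both values, and a p-value speaks only of these lists of regions.

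The 3 best-ranked ELT-1::GFP regions of chromosome IV lay in 1 short stretch of its centre. Number 1 of the whole genome, at 9615324 to 9615967, was number 1 in replicate 1 and in replicate 2, and at 644 bp it was the widest region on IV. Number 3, at 9614093 to 9614503, was number 4 in replicate 1 and 8 in replicate 2. Number 10, at 9618061 to 9618399, was number 8 in replicate 1 and 24 in replicate 2. All 3 belong to a chain of 12 combined regions from 9607040 to 9619135, a span of 12096 bp in which each midpoint is at most 2 kb from the next. No other chain on IV has more than 4. The chain depends on that distance: with midpoints at most 1 kb apart, the longest chain on IV held 4 regions, and at 5 kb it again held 12. Whether the chain lies at elt-1, which the strain also carries as a transgene, was not determined. Any part of the transgene in its ranks was not tested.

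Most of this chain ranked well, apart from 2 regions in its first part. At its start, 9607040 to 9607423 was number 873, against 2040 for replicate 1 and 487 for replicate 2. Next to it, 9607980 to 9608239 was number 23, with 30 in replicate 1 and 29 in replicate 2. The region at 9609180 to 9609410 was number 84, with 87 and 156 in the replicates. After these 2 well-placed regions the rank dropped: 9610028 to 9610411 was number 2249, with 10048 in replicate 1 against 689 in replicate 2. As a ratio, that difference was the widest in favour of replicate 2 of any region on IV, and its score was 0.797 in replicate 1, where 3.70 is the highest value given, and at the highest value, 3.74, in replicate 2.

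The middle of the chain held 9611033 to 9611250 at number 169 (220 in replicate 1, 155 in replicate 2). It also held 9611609 to 9611992 at number 301 (295 and 298) and 9613177 to 9613307, only 131 bp wide, at number 104 (133 and 153). For these 3 the replicates gave like numbers. Beyond number 1 came 9617378 to 9617686 at number 60 (72 and 98) and, after number 10, 9618954 to 9619135 at number 138 (183 and 161). In all, 9 of the 12 were among the best 250 of the genome and 6 among the best 100.

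The replicate lists filled the same stretch in more detail. Replicate 1 had 18 regions overlapping it and replicate 2 had 15, which covered 46.0% and 44.0% of its bases, against 32.1% for the combined list. Of these, 2 regions of replicate 1 and 1 of replicate 2 overlapped no combined region. One gap was filled by both: 1062 bp beyond the midpoint of number 1, replicate 1 had its number 4550 at 9616520 to 9616895 and replicate 2 its number 2531 at 9616521 to 9616904. The other was in replicate 1 alone, number 3027 at 9612425 to 9612800. The plot of the chain by distance shows that both replicates place their best-ranked regions at nearly the same distances. Ranks differed more among the others, as with 10048 in replicate 1 against 689 in replicate 2 at 9610028 to 9610411.

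**Figure D1:**
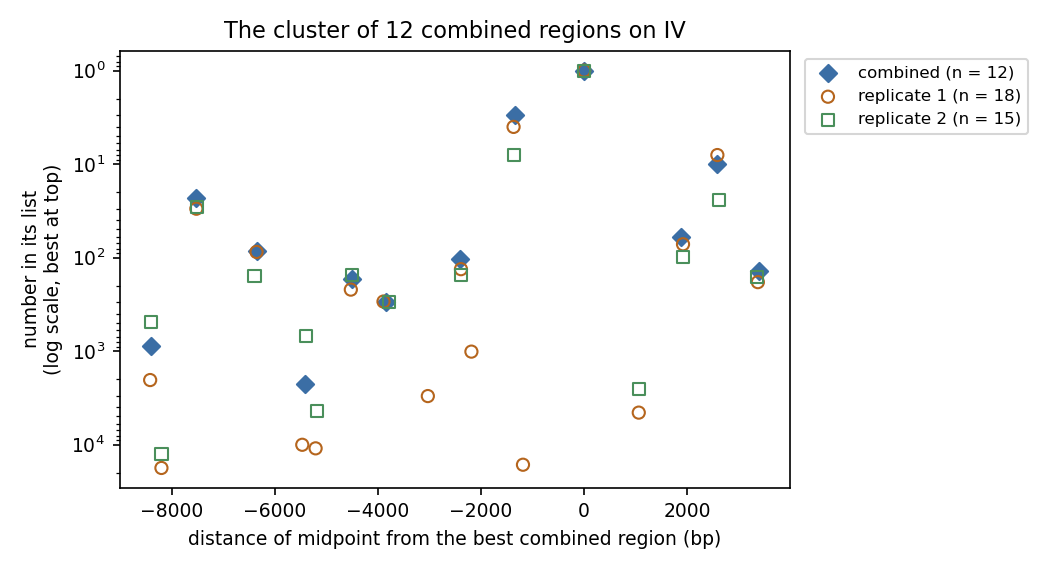
Number of each region (y axis, log scale, best at the top) against the distance in bp of its midpoint from the midpoint of the best combined region (x axis), for the combined list and both replicates over the chain of 12 regions. Filled diamonds are the 12 combined regions, circles the 18 of replicate 1 and squares the 15 of replicate 2; all 3 lists put number 1 at distance 0 and the next best points within 3 kb of it or near the left end of the chain.

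Outside the chain, the best regions of IV were spread along the chromosome. The 20 best on IV ran from number 1 to number 120, and 7 of them lay in the chain. None of the 20 was in the last 20% of the chromosome, called here the end arm, while 5 were in the first 20%, the start arm, and 15 in the centre. Their numbers were between 1 and 164 in replicate 1 and between 1 and 229 in replicate 2, and replicate midpoints were 1 to 77.5 bp apart. The combined list was made from these replicates, so this closeness is not independent of the choice of regions.

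The best region of the start arm was number 12, at 1911253 to 1911686, with 28 in replicate 1 and 7 in replicate 2. A second well-ranked region, number 75 at 1914973 to 1915221 (102 and 105), lay 3627.5 bp from it, midpoint to midpoint. Also in the start arm were number 102 at 654835 to 655035 (111 and 199), number 103 at 3165416 to 3165638 (124 and 159) and number 120 at 3438110 to 3438304 (136 and 91). The start arm thus had several separate places with good rank in both replicates.

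In the centre, number 26 lay at 13014023 to 13014285 (42 in replicate 1, 28 in replicate 2) and number 33 at 4749952 to 4750195 (37 and 53). Number 47, at 11211574 to 11211859 (45 and 77), stood alone, with its nearest combined neighbour 61934 bp away. Number 61, at 13718927 to 13719142, had 84 and 106, whereas number 73, at 11900431 to 11900665, had 56 in replicate 1 and 229 in replicate 2. The remaining 4 of the 20 were number 106 at 8069197 to 8069405 and number 109 at 5506670 to 5506917, number 110 at 11120270 to 11120470, and number 104, given above in the chain. Among the 20, replicate 1 gave the lower number for 14.

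In the combined list, the chromosome as a whole was sparsely occupied. IV carried 20.8 combined regions per Mb over 17.5 Mb, against 25.4 over all chromosomes. V, with 20.3, was the only sparser chromosome of the 6, and X had the most, 33.5. In proportion, the whole replicate lists were more even. Replicate 1 had 262 regions per Mb on IV against 281 over all nuclear chromosomes, and replicate 2 had 253 against 262. IV held 14.3% of the combined regions (exact binomial 95% interval 12.9 to 15.7) on 17.4% of the length. Its share among the best regions depended on where the list was cut. Of the best 250, 42 were on IV (16.8%, exact interval 12.4 to 22.0), but of the best 100 it was 13 (13%, exact interval 7.11 to 21.2), and both intervals hold 14.3%. Of the best 15, 4 were on IV (26.7%, exact interval 7.79 to 55.1), 3 of them in the chain, and 6 were on V. Put the other way, 11.5% of the IV regions were among the best 250, against 9.81% of all combined regions and 7.82% to 10.9% on the other chromosomes. Without the chain of 12 this was 33 of 352 regions, or 9.38%. That was close to the 9.81% over all combined regions, which still counts the chain, and inside the range of the other chromosomes. IV stood above that range only with the chain included. The chain was left out after the data were seen.

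The regions were denser in the centre of IV. The centre had 264 regions, or 25.2 per Mb, and the arms 100, or 14.3 per Mb, a density 1.76 times as high (95% interval 1.39 to 2.24 times; exact binomial test against length, two-sided, p = 7.48e-07, adjusted p = 2.99e-06 by Benjamini-Hochberg over the 4 main tests, without those rerun under alternatives). The replicate lists were less uneven, with 282 regions per Mb in the centre against 271 and 194 in the start and end arms of replicate 1, and 266 against 239 and 229 in replicate 2. The other autosomes held 1207 regions in their centres and 383 in their arms. The odds of lying in the centre on IV were 0.838 times those on the other autosomes (two-sided Fisher's exact test, p = 0.178 and adjusted p = 0.178). No difference between IV and the other autosomes in this balance was thus detectable, and the 95% interval of the odds ratio was 0.644 to 1.10.

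By Mb, the count peaked at 38 regions between 8 and 9 Mb and 34 between 9 and 10 Mb, and 10 of the 34 were among the best 250. The chain of 12 gave 12 of those 34 and 9 of those 10. The lowest counts of a full Mb were at the far end, 6 regions between 15 and 16 Mb and 11 between 16 and 17 Mb. A dip inside the centre, 15 regions between 6 and 7 Mb, lay beside 28 in the Mb before it and 32 in the Mb after it. In that Mb the best was number 428 at 6925608 to 6925717, and none was among the best 250. The whole lists dipped much less there, with 242 and 251 regions against 262 and 275 in the Mb before it.

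**Figure D2:**
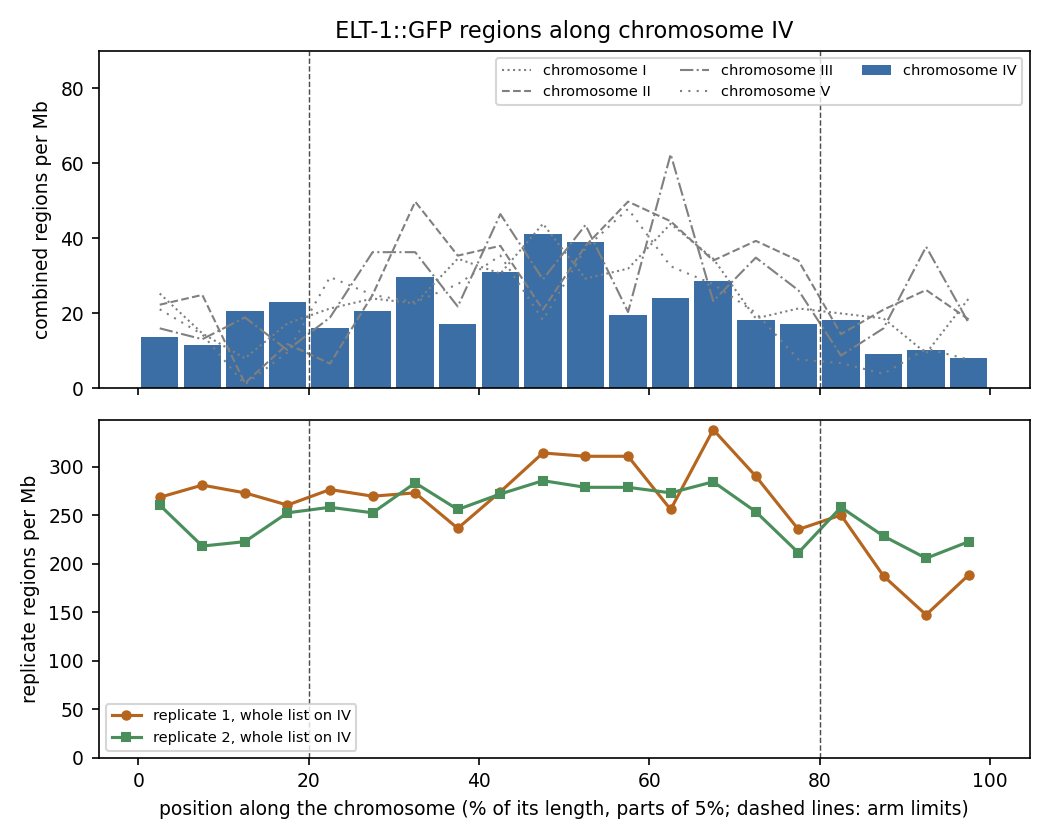
Regions per Mb in parts of 5% of chromosome length (x axis). The upper panel has the combined list, with bars for IV and lines for the other autosomes, and the lower panel has the whole replicate lists on IV; bars for IV peak in the middle at 41.2 per Mb and end at 8.00 per Mb, while the replicate lines vary less.

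Long stretches of IV had no combined region at all. The longest ran from 15039906 to 15471404, 431 kb in the end arm, and yet 66 regions of replicate 1 and 84 of replicate 2 lay inside it. The next, of 349 kb, ran from 5974570 to 6323670 in the centre and held 80 and 75 replicate regions. These stretches were thus empty in the combined list and not in the replicate lists. Over all 363 neighbouring pairs, the median distance between midpoints was 24.5 kb. The stretches and this median were not set beside other chromosomes, so they mark no trait of IV.

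The start and end arms held different numbers of well-ranked regions, a difference given by its values. The start arm had 60 regions (17.2 per Mb) and the end arm 40 (11.4 per Mb), 60 to 40 (95% interval of the ratio 0.989 to 2.30), which did not pass the test (exact binomial test against an even split, two-sided, p = 0.0569, adjusted p = 0.0759). V had a like lean, 48 to 30 (ratio 1.60, 95% interval 0.993 to 2.62). On I, II, III and X the start arm held fewer regions than the end arm (ratios 0.681 to 0.907). On IV, the best regions of each replicate gave 62 against 36 (replicate 1) and 65 against 33 (replicate 2). These passed that test (exact binomial p = 0.0112 and 0.0016, unadjusted). The combined list was made from these replicates, so they are not independent of it. With arms of 15%, 25% and 30%, the combined list did not pass (exact binomial p = 0.0599, 0.113 and 0.117, unadjusted). In the start arm 10 of 60 regions were among the best 250 and in the centre 32 of 264, but in the end arm 0 of 40. The arms of the other chromosomes each held 2 to 14 of the best 250, or 5.32% to 15% of their regions. The smallest of these arms, the end arm of V, held 2 of 30. The share over all combined regions was 9.81%. The median number was 1154.5 in the start arm, 1237 in the centre and 1691.5 in the end arm, and the difference in rank was not tested.

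Fewer regions of the end arm were backed by the best of both replicates. There, 14 of its 40 regions (35%) overlapped one of the best 2548 of both replicates, against 39 of 60 (65%) in the start arm and 174 of 264 (65.9%) in the centre. The share was 59.9% over all combined regions and 47.5% to 63.0% in the end arms of the other chromosomes. Over the whole list it fell with rank, and the end arm of IV had the highest median number, 1691.5. The part of rank in the 35% was not tested. The best region of the end arm was number 319, at 14219636 to 14220019, with 494 in replicate 1 and 230 in replicate 2. Number 320, at 17249788 to 17249924, had 172 in replicate 1 but 4171 in replicate 2. Number 956, at 15471404 to 15471787, had 608 in replicate 1 and 24492 in replicate 2, as a ratio the widest difference in favour of replicate 1 on the chromosome. Fewer regions of any rank were found there in replicate 1, with 194 per Mb in the end arm against 271 in the start arm, and the part this had in the counts was not tested.

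**Figure D3:**
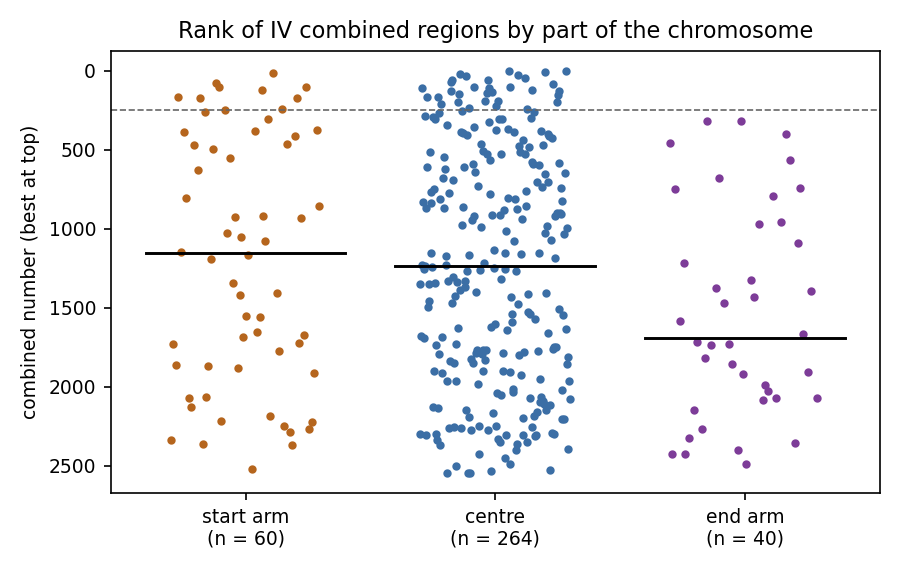
Number in the combined list (y axis, best at the top) of each of the 364 IV regions, by part of the chromosome; points are spread sideways only to separate them, black bars are medians and the dashed line marks the best 250. The start arm and the centre have 10 and 32 points above the line, the end arm has 0.

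Nearly all IV regions were found in both replicates, but their order there was only partly alike. Of the 364, 355 (97.5%, Wilson 95% interval 95.4 to 98.7) overlapped a region of both replicates by at least 1 bp, and the share over all combined regions was also 97.5%. Against only the best 2548 regions of each replicate, 227 (62.4%, Wilson interval 57.3 to 67.2) were found in both, with 59.9% over all combined regions. On the other chromosomes this share ran from 56.5% to 63.1%, so IV is inside their range. Within the best 250, all 42 IV regions passed, between number 501 and 1000 it was 64 of 70 (91.4%), and from number 2001 on it was 8 of 82 (9.76%). Over all combined regions the same tiers had 100%, 90% and 9.49%, so the fall with rank on IV was near that of the whole list.

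Over the 1430 IV pairs that were each other's best partner in the whole replicate lists, the numbers of replicate 1 and 2 had a Spearman's rank correlation of 0.560, and their scores 0.532. Across the 355 combined regions the rank correlation of the numbers was 0.489. These values describe regions within 2 samples, from which the combined list was made, and have no test. On the other chromosomes the rank correlation over combined regions ran from 0.385 to 0.513. The numbers were within 2-fold of each other for 183 regions (51.5%). Replicate 1 ranked a region at least 10-fold better in 10 cases and replicate 2 in 1 case, the weak region of the chain given above. The scores could order few of these regions, since 346 of the 355 were at the highest value in at least 1 replicate. The counts within 2-fold, at 10-fold and at the highest score were not set beside other chromosomes, so they mark no trait of IV.

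**Figure D4:**
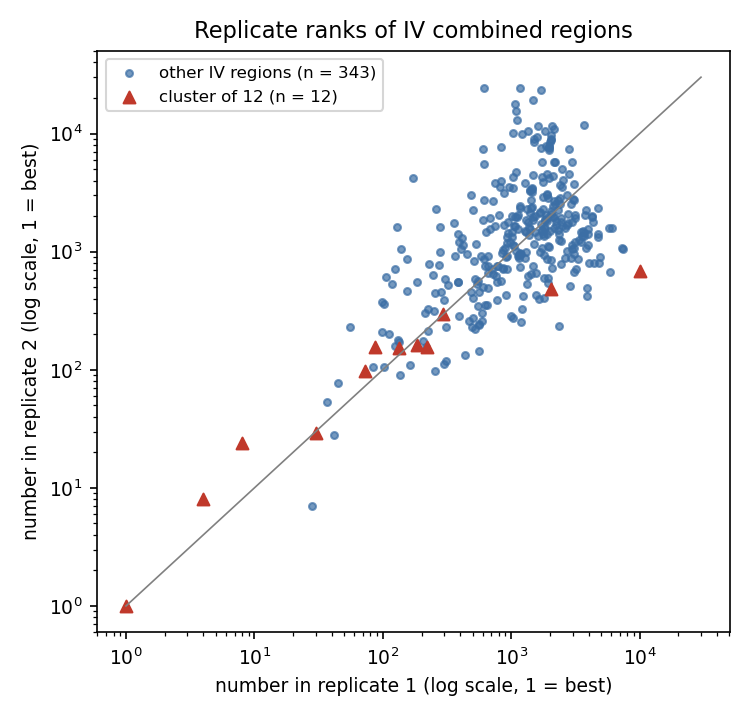
Number in replicate 1 (x axis) against number in replicate 2 (y axis), both on log scales with 1 as best, for the 355 IV regions with a partner in both; triangles are the chain of 12 and the line marks equal numbers. The best regions lie near the line, and points further on spread to both sides. Some numbered under 1000 in replicate 1 lie far from it, such as 172 against 4171 and 608 against 24492 in replicate 2. Differences of at least 10-fold favour replicate 1 in 10 cases and replicate 2 in 1.

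Replicate midpoints were a median of 39 bp apart, from 0 to 356 bp, and 295 of the 355 pairs (83.1%) were under 100 bp apart. The median over all combined regions was 38 bp. On IV it was 20 bp among the 13 regions of the best 100 and 77.5 bp among those from number 2001 on, with 14 and 61.5 bp over all combined regions of these tiers. The lower medians at the best ranks were thus shared by the whole list.

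The 9 regions without a partner in one replicate were all ranked low, from number 1539 to 2490, and all had the set width of 384 bp. Of these, 8 had a partner in replicate 1 only, at 5966944 to 5967327, 257076 to 257459, 1467264 to 1467647, 682933 to 683316, 5974187 to 5974570, 7815825 to 7816208, 5492257 to 5492640 and 14959432 to 14959815, with numbers from 844 to 2178 in that replicate. The ninth, number 2338 at 126140 to 126523, had a partner in replicate 2 only, at number 921. It was the 1 combined region of the genome with that pattern. The split of 8 to 1 had an exact binomial p of 0.0391 against an even split, two-sided, and an adjusted p of 0.0759, so it did not hold over the 4 main tests. Over all combined regions, IV included, the split was 62 to 1, so the lean to replicate 1 was not one of IV alone. With a 50% reciprocal overlap the split on IV was 20 to 5 (exact binomial p = 0.00408, unadjusted) and with midpoints within 200 bp it was 10 to 1 (exact binomial p = 0.0117, unadjusted). None of the 9 had a combined neighbour within 2 kb.

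Conversely, some well-ranked replicate regions on IV were left out of the combined list. Of 365 IV regions numbered up to 2548 in replicate 1, 57 (15.6%) overlapped no combined region, with 15% over all nuclear regions, and in replicate 2 it was 99 of 382 (25.9%), with 26.4% over all nuclear regions. The best of these in replicate 1 was number 1263 at 3621723 to 3622098, which had no partner in replicate 2. The best in replicate 2 was number 774 at 10936603 to 10936986, whose partner in replicate 1 was number 5459. IV lay close to all nuclear regions in both shares.

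Taking all replicate regions on IV, 35.2% of replicate 1 and 36.4% of replicate 2 overlapped a region of the other, with 37.2% and 39.6% over all nuclear regions. The share depended on rank. It was 41 of 41 in replicate 1 and 37 of 37 in replicate 2 among those numbered up to 250, and 89.5% and 87.2% from there to 2548. From 20385 on it was 21.9% and 25.5%. Over all nuclear regions the same ranks had 100% and 99.6%, then 90.1% and 90.9%, and at the last 23.4% and 26.4%, so IV was near the whole lists at each.

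**Figure D5:**
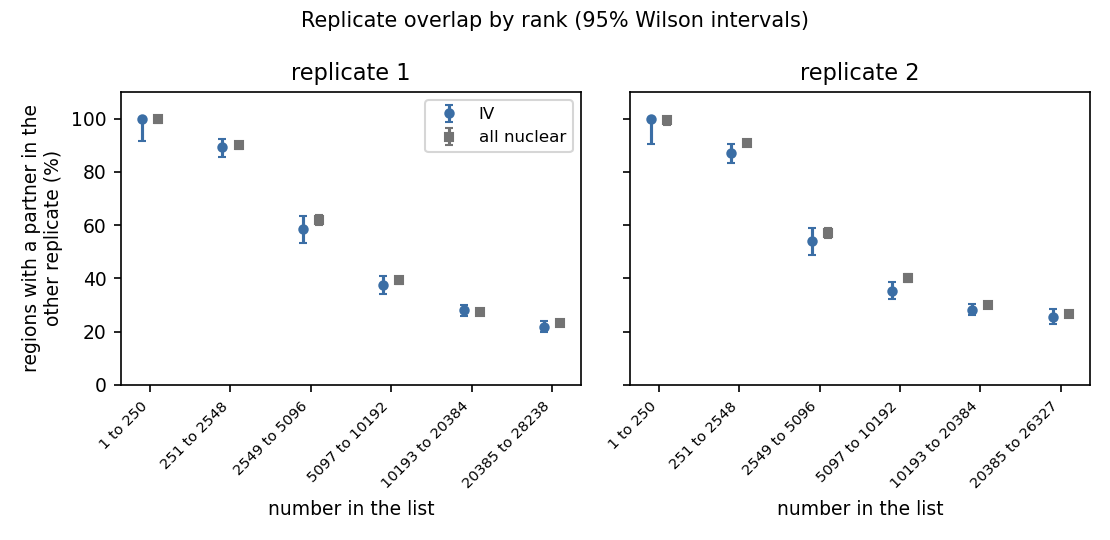
Share of replicate regions with a partner in the other replicate (y axis, %) by number in the list (x axis), for IV and for all nuclear chromosomes, with 95% Wilson intervals that cover counting error only. In both replicates the share falls from 100% on IV at the best ranks to 21.9% and 25.5% at the last.

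Most regions of IV, 262 of 364, stood singly, and the share with a close neighbour was near that of the whole list. Of the 364, 102 (28.0%) had another midpoint at most 2 kb away, with 26.8% over all combined regions and 21.4% to 29.95% on the other chromosomes; without the chain of 12 it was 90 of 352 (25.6%). The close pairs lay mostly in the centre, where 86 of 264 regions (32.6%) had such a neighbour, against 6 of 60 in the start arm and 10 of 40 in the end arm. The chain of 12 gave 12 of these 86. The centre was also the densest part, with 25.2 regions per Mb, and the part of density in this contrast was not tested. Besides the chain of 12 there were 2 chains of 4, 4 of 3 and 35 pairs.

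One chain of 4 lay in the start arm, where the other 2 regions with such a neighbour were a pair at 1547203 to 1548693, numbers 243 and 246. It ran from number 120 at 3438110 to 3438304 through number 263 at 3439416 to 3439700 (313 in replicate 1, 232 in replicate 2) and number 170 at 3440887 to 3441163 (215 and 157) to number 1421 at 3441760 to 3442143 (1061 and 1972). Its first 3 members ranked well in both replicates and the last did not.

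The other chain of 4 was in the centre. It began with number 189 at 5758804 to 5758924 (213 in replicate 1, 302 in replicate 2) and went on with number 606 at 5760310 to 5760440 (905 and 426). Number 514 at 5761200 to 5761583 had 1220 and 328, and number 865 at 5762264 to 5762647 had 926 and 915. Only its first member was among the best 250, against 2 of the 4 in the start arm, whose last member, number 1421, ranked below all 4 of these. The chains of 3 lay at 6490518 to 6492996, 8069197 to 8071448, 8241419 to 8243572 and 8822444 to 8826426, all in the centre, and 1 of their members was among the best 250.

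Width and rank went together on IV, and most regions share 1 width per list. The set width of 384 bp stood beside 300 regions, 60 were narrower and 4 wider, so 17.6% had another width, with 16.5% over all combined regions. All 42 IV regions of the best 250 were of another width. Widths by rank were not set beside other chromosomes, so they mark no trait of IV. Regions of the set width began at number 286 and had a median number of 1540, and the others had a median number of 182 and a median width of 194.5 bp. The widest after number 1 were number 12, at 434 bp, and number 578 at 13353294 to 13353724, at 431 bp, with 1184 in replicate 1 and a lower, better number in replicate 2. The narrowest were number 403 at 16499907 to 16500002 and number 412 at 7663061 to 7663156, both 96 bp, and number 640 at 8041082 to 8041185, 104 bp. Each of these 3 narrow regions had a combined neighbour within 2 kb.

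The best region of each remaining Mb shows how rank varied along the chromosome. In the start arm, the Mb from 2 to 3 had no better region than number 463 at 2149304 to 2149687 (555 in replicate 1, 566 in replicate 2), between neighbouring Mb led by numbers 12 and 103. In the centre, number 130 at 7234709 to 7234890 had 99 and 373, number 134 at 10261226 to 10261453 had 255 and 97, and number 196 at 12021499 to 12021651 had 224 and 211. Every Mb up to 14 Mb except those from 2 to 3 and from 6 to 7 held at least 1 of the best 250, and no Mb after 14 did.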

How the data were processed

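ChIP-seq regions of 2 ChIP samples were analysed as deposited, in 1 list for each sample and 1 combined list, with input samples not used here. Coordinates are WormBase WS220, per the file headers, and the second column of the deposited files reads spp_via_IDR, for the caller SPP and the irreproducible discovery rate. How the combined list was made, how input was used, the aligner, versions and thresholds: not given in the sources used here. The score in the deposited files is the authors' and is described by no field. The deposited names carry a number, used here as rank. Start and end are used as the authors deposited them.

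Partners overlap by at least 1 bp, and among several the lowest number was taken. Chromosome length is the largest coordinate in any list. Arms are the outer 20% at either end. A chain joins midpoints within 2 kb. The limit of the best 250 was set after the values were seen, in place of a slightly longer top list, on which IV held 16.9%. Of the main tests, 3 were exact binomial and 1 was Fisher's exact test, adjusted together by Benjamini-Hochberg. Tests rerun under alternatives were left unadjusted. Intervals are 95% and cover counting error only. Regions are not independent replicates, and the labels do not say that the 2 ChIP samples are separate cultures. Read depth is unknown. Functions were tested on simulated lists. Tests were run with scipy 1.17.1 in Python 3.11.15, tables were made with pandas 2.3.3 and numpy 2.4.6, and matplotlib 3.10.9 drew the figures.

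Named regions are the 20 best on IV, the best in each Mb, members of chains of 4 or more, regions lacking a partner in one replicate, and the 3 widest and 3 narrowest; others, such as the longest empty stretches, the chains of 3, the pair in the start arm and the best regions left out of the combined list, were chosen after their values were seen. Members, lists and tests were chosen with earlier results of these data known. Motif and gene comparisons were not run, because a WS220 sequence and annotation were not used here. Alternatives were other lists, overlap rules, arm limits and neighbour distances.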

Additional observations from a re-analysis of the deposited data

How the results depend on the processing

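The share of regions on IV, main value 14.3%, was 13.9% to 15.1% under its 5 alternatives, and its share of the best 250, 16.8%, was 13% to 16.9% under its 6. The centre-to-arm ratio of IV passed its test under all 7 alternatives (1.56 to 2.06). The start-to-end arm ratio, 60 to 40, passed its test with each replicate's best nuclear regions (1.72 and 1.97), in the better-ranked 1274 of the combined list (2.46) and with neighbours joined (1.60), and not with other arm limits. The odds ratio against the other autosomes changed side with arms of 15% (1.11), where it did not pass either; the cause was not tested. Partners in both replicates fell from 97.5% to 87.1% with a 50% reciprocal overlap and to 62.4% against each replicate's best 2548, and were 100% in the better-ranked 1274. In replicates 1 and 2 the shares with a partner were 24.1% and 24.8% with that overlap and 25.4% and 26.1% with midpoints within 200 bp. A neighbour was found for 13.2% of regions within 1 kb and 44.0% within 5 kb, where a shorter or longer distance is the change itself. At 1 kb the longest chain held 4 regions, at 5 kb 12, and in the best regions of each replicate 12 and 14. Spearman's rank correlation between replicates, 0.560 over the pairs of the whole replicate lists, was 0.532 with scores in place of numbers, 0.489 over the 355 combined regions and -0.0858 over these with scores; 229 of the 355 had the highest score in both. Alternatives without the chain of 12, those of the rank correlation over combined regions, of the odds ratio and of the 8 to 1 split were chosen after seeing the data. The motif alternative was not run. No paired analysis was possible because no list of the input samples was analysed here. With unknown depth, a region missing from a list cannot be called unbound.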
